A study of Mus musculus with 3 samples.

Results

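The kinases that carry a Toll-like receptor signal to its transcription factors fall into a pair of related complexes. In the canonical IκB kinase complex the catalytic subunits IKKβ (gene Ikbkb) and IKKα (gene Chuk) are held by the regulatory subunit NEMO (gene Ikbkg), and they mark IκB proteins for degradation so that NF-κB is freed. The IKK-related kinases TBK1 (gene Tbk1) and IKKε (gene Ikbke) phosphorylate IRF3 and IRF7, the factors behind type I interferon, and are bound by the scaffolds TANK (gene Tank), NAP1 (gene Azi2) and SINTBAD (gene Tbkbp1). In macrophages TBK1 is known as the constitutive kinase of its pair and IKKε as the inducible one.

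These 8 genes were chosen by symbol in the transcript tables, and all 8 were found among the 55536 annotated genes, of which 22028 are protein coding. RNA was measured in bone-marrow-derived macrophages, primary cells of C57BL/6J mice whose sex and age were not collected. Lipid A, the membrane anchor of lipopolysaccharide and the ligand of Toll-like receptor 4, was given at 100 ng/ml for 12 h and then washed out for 12 h, and a second dose of 100 ng/ml was given for 60 min before the chromatin fraction was taken. That fraction holds RNA that is still being made or has not left the gene. The 3 libraries, replicates 1, 2 and 3, are 1 group under 1 donor entry, with no untreated or once-dosed library, so every value here is a level in twice-dosed cells and not a response. The labels do not say whether the libraries came from separate animals or cultures, and a p-value then covers only the spread between these samples.

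Each library held 12602702 to 17222239 gene counts, and replicates 1, 2 and 3 were made from 1000, 250 and 500 ng of RNA. Of 10 macrophage marker genes, 9 had at least 10 TPM (a transcript abundance scaled by length and by library) in every library. By gene-table counts none of the 6 neutrophil or 4 B cell markers was detected, and of 5 T cell markers only Cd4 was. In the kallisto layout, the other deposited quantification, the T cell marker Cd3d had a mean of 14.4 TPM, Cd4 3.62 TPM and Cd8a 1.21 TPM, while Cd3e had 0.038 TPM. The 9 fibroblast or stromal markers summed to 44072 counts in replicate 2, against 73 and 135 in replicates 1 and 3, and Col1a1, Dcn and Lum had 0 counts in replicate 1. Replicate 2 therefore holds stromal RNA that the other libraries hold at little or none, and the gene-table level of each member is given below for every library. Most other pathway genes are given as a mean and SD, which replicate 2 enters.

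The IKK-related kinases were high. Ikbke had 1583.65, 1411.84 and 1346.07 TPM in replicates 1, 2 and 3, a mean of 1447 ± 123 (SD, n = 3), which ranked 8 among 22028 protein-coding genes. The gene lies at chr1:131254343-131279606 on the minus strand in mm10, and 28925 to 35375 counts stood behind each value. Its partner Tbk1, at chr10:121546455-121586787 on the minus strand, had 247.71, 273.08 and 248.76 TPM and ranked 184, with a mean of 257 ± 14.4 (SD, n = 3). The TPM of Ikbke was 6.39, 5.17 and 5.41 times that of Tbk1 in replicates 1, 2 and 3, and the ranges stood far apart. On the log2(TPM + 1) scale Ikbke exceeded Tbk1 by 2.49 (SD 0.16, n = 3) in 3 of 3 libraries. An exact two-sided sign-flip test over 3 libraries gave p = 0.25, the smallest it can give, as it did for every contrast between members below.

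Genes with a level close to each kinase in every library were ranked by the root mean square difference of log2(TPM + 1) over the 3 libraries. Nearest to Ikbke were Acod1, which makes the enzyme of itaconate synthesis, at a distance of 0.158, then Zeb2 at 0.179 and Fyb at 0.211. Nearest to Tbk1 was Irak2, a kinase of the MyD88 branch of Toll-like receptor signalling, at 0.0225. It had 247.92, 267.46 and 244.48 TPM beside the 247.71, 273.08 and 248.76 TPM of Tbk1. Zup1 at 0.0723 and Nckap1l at 0.0793 followed.

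The scaffolds differed by more than the kinases did. Tank, whose product binds TBK1, IKKε and TRAF adaptors, had 463.57, 370.13 and 584.96 TPM, a mean of 473 ± 108 (SD, n = 3), from 7130 to 13015 counts at chr2:61578585-61654171 on the plus strand. Azi2, at chr9:118040499-118069794 on the plus strand, had 119.68, 112.12 and 120.46 TPM, a mean of 117 ± 4.61 (SD, n = 3). Tbkbp1, at chr11:97136171-97151495 on the minus strand, had 3.20, 6.93 and 2.87 TPM, a mean of 4.33 ± 2.25 (SD, n = 3), from 130, 231 and 122 counts. Tank was thus the scaffold with most chromatin RNA in every library, and Tbkbp1 the one with least. Tank exceeded Azi2 by 1.98 (SD 0.28, n = 3) and Tbkbp1 by 6.53 (SD 0.88, n = 3) on the log2(TPM + 1) scale, each in 3 of 3 libraries. The highest Tbkbp1 value was that of replicate 2, the library with stromal RNA, and without it the mean was 3.04 TPM. The part of that RNA in the Tbkbp1 level was not tested, and in such bulk RNA fewer cells of a type and less RNA per cell cannot be told apart.

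In the canonical complex Ikbkb stood above Chuk and both stood above Ikbkg. Ikbkb, at chr8:22659212-22706589 on the minus strand, had 121.21, 138.66 and 205.82 TPM, a mean of 155 ± 44.7 (SD, n = 3). Chuk, at chr19:44073335-44107480 on the minus strand, had 51.15, 91.77 and 84.34 TPM, a mean of 75.8 ± 21.6 (SD, n = 3). Ikbkg, at chrX:74393290-74453854 on the plus strand, had 14.76, 18.46 and 14.42 TPM, a mean of 15.9 ± 2.24 (SD, n = 3), from 321, 613 and 501 counts. The values of the 3 genes did not overlap. Ikbkb exceeded Chuk by 1.03 (SD 0.38, n = 3) and Ikbkg by 3.18 (SD 0.49, n = 3) on the log2(TPM + 1) scale, in 3 of 3 libraries each. When isoforms annotated as protein coding alone were summed, which was tried only once results were known, the difference between Ikbkb and Chuk turned to -0.17. Ikbkb then had 7.43, 14.4 and 28.3 TPM and Chuk 9.63, 23.3 and 20.1 TPM, so Ikbkb was higher only in replicate 3. Under that setting the difference between Ikbkb and Ikbkg shrank to 0.42, with Ikbkb higher in 2 of 3 libraries. In replicate 1 Ikbkb had 7.43 TPM and Ikbkg 8.99 TPM.

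Set side by side, the mean of Ikbke and Tbk1 lay above the mean of Ikbkb and Chuk by 2.52 (SD 0.43, n = 3) on the log2(TPM + 1) scale. Tbk1 alone lay above Ikbkb by 0.76 (SD 0.42, n = 3). That difference was 1.03 and 0.97 in replicates 1 and 2 and 0.27 in replicate 3, the library with the highest Ikbkb value. In CPM (counts scaled to the library total, not divided by length), the mean difference between Tbk1 and Ikbkb turned to -0.10. Tbk1 was still higher in 2 of 3 libraries, with 445, 309 and 312 CPM in replicates 1, 2 and 3. Ikbkb had 399, 290 and 454 CPM. The summed TPM of Ikbke and Tbk1 was 10.6, 7.31 and 5.50 times that of Ikbkb and Chuk in replicates 1, 2 and 3, and 3.12, 3.44 and 2.25 times that of the 3 scaffolds.

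The full order by mean level was Ikbke, Tank, Tbk1, Ikbkb, Azi2, Chuk, Ikbkg and Tbkbp1, and in 7 of 7 pairs of neighbours the TPM values did not overlap. The closest pair was Ikbkb and Azi2, where the lowest Ikbkb value of 121.21 TPM stood beside the highest Azi2 value of 120.46 TPM. Their deposited credibility intervals were apart in 2 of 3 libraries, against 3 of 3 for each other pair. In the deposited tables in the kallisto layout, which assign reads to transcripts without a genome alignment, 5 of 7 pairs did not overlap. There Tank, at 497, 326 and 520 TPM, overlapped Tbk1, at 422, 336 and 317 TPM. Ikbkb, at 133, 135 and 201 TPM, overlapped Azi2, at 173, 144 and 172 TPM. The kallisto layout put Ikbke at 2272, 2020 and 2088 TPM and rank 3, so that its mean level was 1.47 times that of the gene table.

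**Figure D1:**
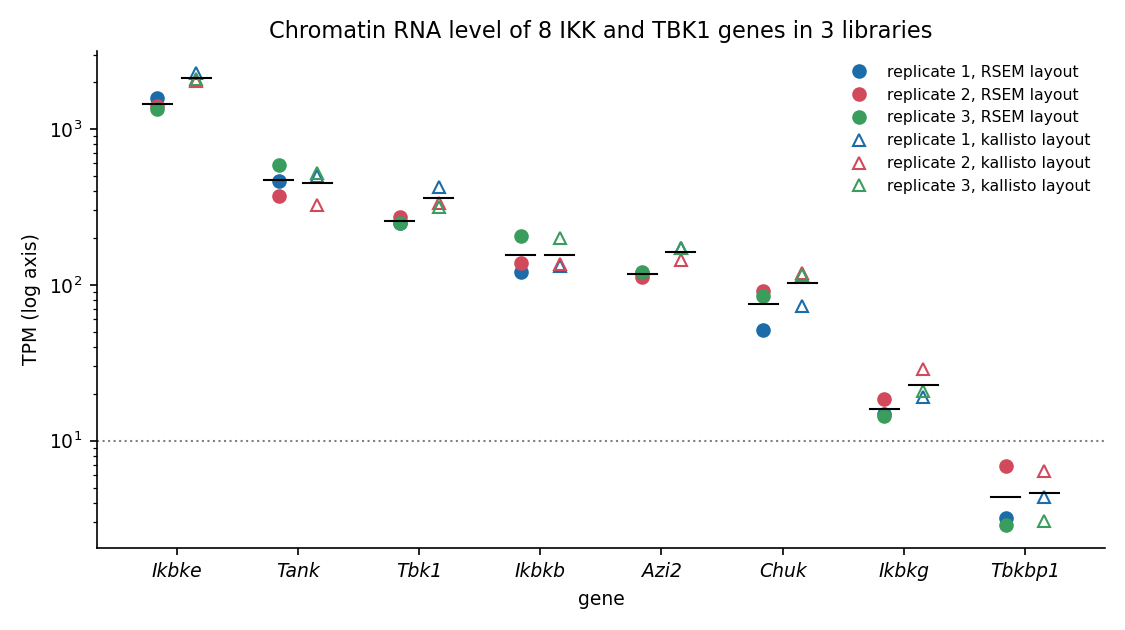
TPM of the 8 genes (log axis) in order of mean level, 1 point per library, with filled circles for the gene tables in the RSEM layout, open triangles for the kallisto layout and bars for the mean of 3 libraries; the dotted line marks 10 TPM. Ikbke is highest in every library by either method, 7 of 8 genes lie above 10 TPM throughout, and Tbkbp1 stays below 10 TPM.

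A level of at least 10 TPM in every library was reached by 7 of 8 members, all but Tbkbp1, and by 16.7% of protein-coding genes (3687 of 22028). At least 100 TPM in every library was reached by 5 of 8 members, namely Ikbke, Tank, Tbk1, Ikbkb and Azi2, and by 2.15% of protein-coding genes (474 of 22028). The median of the mean TPM was 136 over the 8 members and 0.56 over all protein-coding genes. The members were chosen by name in a cell type known to use the pathway.

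Other genes of the pathway were grouped by role. The 10 adaptors and ubiquitin ligases that act before the kinases had a median of 21 TPM, and the highest were Rbck1 at 50.4 ± 8.40 and Rnf31 at 48.6 ± 6.82 TPM (SD, n = 3 each), both subunits of the linear ubiquitin ligase whose chains NEMO binds. The lowest were Mavs, the adaptor of RNA sensing, at 2.28 ± 1.15 TPM and Tmem173, which encodes STING, at 2.98 ± 1.98 TPM (SD, n = 3 each). By library Mavs had 2.09, 3.51 and 1.24 TPM and Tmem173 1.23, 5.13 and 2.59 TPM, each highest in replicate 2. The DNA and RNA sensing adaptors that also feed TBK1 thus lay below Ticam1, the TLR4 adaptor that does so, at 13.42, 13.12 and 14.28 TPM, a gene named here after its value was seen. Among the 6 upstream kinases and their partners, with a median of 20.0 TPM, the highest were Tab2 at 73.0 ± 7.74 and Map3k8, which encodes TPL2, at 67.2 ± 20.1 TPM (SD, n = 3 each). In replicates 1 and 2 Map3k8, at 73.68 and 83.3 TPM, lay above Tab2, at 64.14 and 76.32 TPM. In replicate 3 it lay below, at 44.74 against 78.5 TPM. Tab1 at 2.63 ± 1.63 and Tab3 at 2.84 ± 2.21 TPM (SD, n = 3 each) were lowest, with 1.76, 4.51 and 1.61 TPM by library for Tab1 and 0.88, 2.41 and 5.23 TPM for Tab3.

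The 13 substrates and targets had a median of 90.1 TPM, and all 13 reached 10 TPM in every library. Sqstm1, the autophagy receptor p62, was highest at 652 ± 55.6 TPM, followed in mean level by Irf7, a substrate of the IKK-related kinases, at 362 ± 76.5 TPM (SD, n = 3 each). In replicate 3 Irf7, at 293.18 TPM, lay below Nfkb1 at 496.37 and Nfkbia at 391.71 TPM, and in the kallisto layout its mean of 264 TPM was below their means of 364 and 518 TPM. The lowest in the gene tables were Irf5, at 40.5, 56.2 and 53.4 TPM, and Nfkbib at 52.3 ± 7.56 TPM (SD, n = 3). The kallisto layout gave Irf5 a mean of 127 TPM, above Nfkbib at 65.8 TPM and not among the lowest. Among the 9 restraints and cofactors, with a median of 45.2 TPM, the deubiquitinase gene Tnfaip3 at 585 ± 99.0 TPM and its partner Tnip1 at 224 ± 21.9 TPM (SD, n = 3 each) were highest. Sike1, whose product binds and restrains TBK1 and IKKε, was lowest at 12.1 ± 3.71 TPM, and the deubiquitinase gene Cyld had 14.0 ± 6.53 TPM (SD, n = 3 each). By library Cyld had 10.05, 21.58 and 10.52 TPM and Sike1 7.79, 13.89 and 14.51 TPM, so Cyld was the lower in replicate 3. Ikbke was thus above each of the 38 pathway genes in mean TPM, and by gene-table means Tank was below only Sqstm1 and Tnfaip3 among them. In the kallisto layout Nfkbia, at 518 TPM, also lay above Tank, at 448 TPM. Of the 38, 31 reached 10 TPM and 8 reached 100 TPM in every library.

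**Figure D2:**
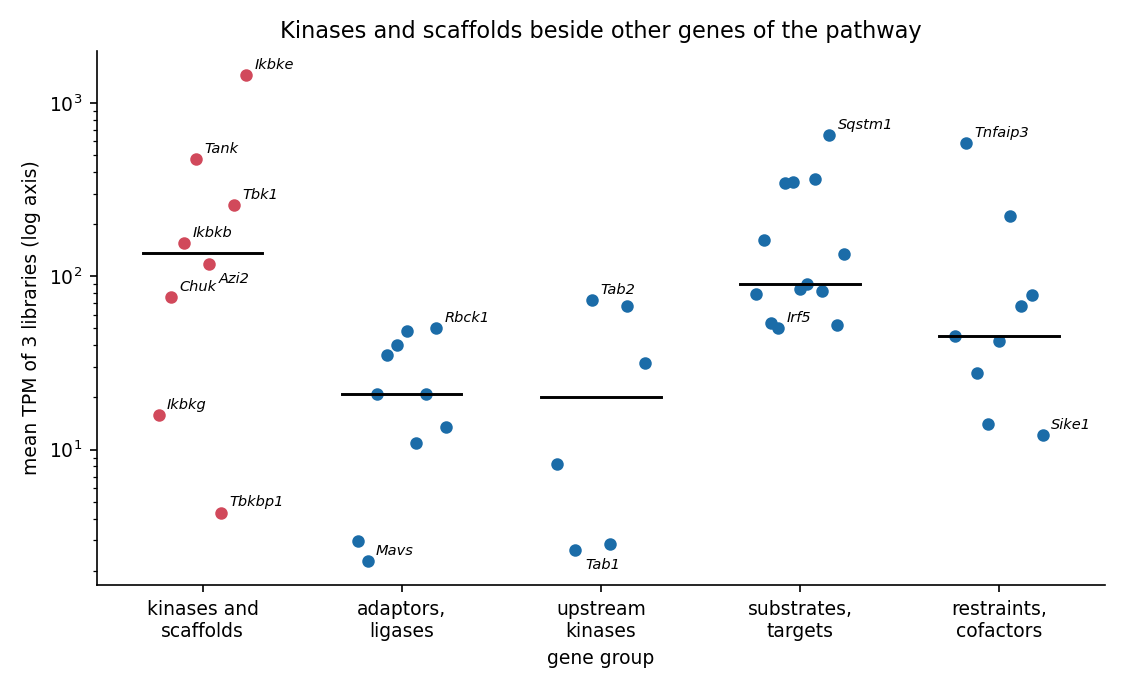
Mean TPM of 3 libraries (log axis) for the 8 kinases and scaffolds in red and for 38 other pathway genes in blue, 1 point per gene, with a bar at each group's median; the highest and lowest gene of each pathway group is named. The medians are 136 TPM for the kinases and scaffolds, 21 for adaptors and ligases, 20.0 for upstream kinases, 90.1 for substrates and targets and 45.2 for restraints and cofactors.

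The spread between libraries depended on the scale. For counts scaled by library total and TMM factor, the coefficient of variation was 30.5% for Ikbke, 22.3% for Tbk1, 41.2% for Tank, 33.1% for Ikbkb and 15.2% for Ikbkg, against a median of 19.4% over 4559 protein-coding genes with a mean of at least 10 TPM. In TPM it was 8.48% for Ikbke and 5.60% for Tbk1, at percentiles 7.3 and 3.3 of those genes, and 52.0% for Tbkbp1. The scaled counts of Ikbke were 2746, 1508 and 1933 CPM in replicates 1, 2 and 3, so replicate 1 was high in counts while the TPM of the 3 libraries lay close together. The effective length by which counts are divided was nearly the same in each library for Ikbke, at 1539, 1541 and 1508 bases. For Ikbkg that length was 1497, 2496 and 2438 bases in replicates 1, 2 and 3, and for Azi2 it was 1169, 1526 and 1507 bases.

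All 8 genes together have 81 annotated isoforms, and 69 had more than 3 expected counts in at least 1 library. GENCODE sorts them into classes, among them protein-coding isoforms and retained-intron isoforms, which keep bases that the coding isoform removes. Of the 8 genes, 6 have both classes, and Tank and Tbkbp1 have no retained-intron isoform. Some protein-coding isoforms also hold intron bases of the longest coding isoform, which make up 23.7% of Ikbkb-202 and 24.6% of Ikbke-202. The protein-coding class is thus not made of spliced bases alone. Retained-intron isoforms of these genes are mostly short models, with a median length of 807 bases against 2227 bases for the protein-coding ones, so the same number of reads gives them a higher TPM. No table holds an unspliced precursor as a feature, and a read from an intron can be assigned only to an isoform that keeps those bases.

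The sequences below show where 1 retained-intron isoform departs from the coding isoform, for 5 of the 6 genes. For each gene the first line is the spliced junction, with 15 bases of exon on either side, and the second is the same exon edge in the retained-intron isoform, with the 15 intron bases in capitals. All are transcript sequences of GENCODE M21 on mm10, written in the sense of the gene.
Ikbke, spliced across intron 7 of 21: caacaaagagatcatgtacagaatcaccac
Ikbke-205, 3′ end of intron 7 kept, chr1:131272204-131272233: TCTGCCCCACTACAGgtacagaatcaccac
Tbk1, spliced across intron 13 of 20: accaagctgctgagactttccagttctcag
Tbk1-207, 3′ end of intron 13 kept, chr10:121554010-121554039: ACCCGTTGTATTTAGctttccagttctcag
Ikbkb, spliced across intron 12 of 21: gtgtcagctgtatccttcaggagcccaagc
Ikbkb-211, whole intron 12 kept, its 5′ end shown, chr8:22671616-22671645: gtgtcagctgtatccGTAAGTGCATCATTT
Chuk, spliced across intron 16 of 20: agcacagacctcctgatcacttgtacagcg
Chuk-207, 5′ end of intron 16 kept, chr19:44081931-44081960: agcacagacctcctgGTAAGACACTTCAGT
Ikbkg, spliced across intron 3 of 10: atcaagagctccgagacgctatccggcaga
Ikbkg-212, 5′ end of intron 3 kept, chrX:74432992-74433021: atcaagagctccgagGTAAAGATTGATGTG

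In each 5′ pair the capitals open with GT, and in each 3′ pair they close with AG, the usual ends of an intron. Of these isoforms, Ikbkb-211 alone keeps its intron whole (1900 of 1900 bases). Ikbke-205 keeps 323 of 1152 bases, Tbk1-207 139 of 1962, Chuk-207 531 of 2960 and Ikbkg-212 349 of 796 bases of the intron shown. These 4 isoforms therefore begin or end inside an intron, and a read within those bases cannot be told from a read of the unspliced precursor.

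The balance of the classes was measured per gene as log2 of the summed retained-intron TPM over the summed protein-coding TPM, each plus 0.1. It was tested against 0 with limma, with Benjamini-Hochberg adjustment over 4311 genes that had both classes and a summed mean of at least 5 TPM. Of these genes, 24.3% (1049) were higher in the retained-intron class and 25.6% (1104) in the protein-coding class, and the median log2 ratio was -0.06. Of the 6 members tested, 3 were higher in the retained-intron class, 1 in the protein-coding class and 2 passed no threshold.

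Both catalytic subunits of the canonical complex leaned to the retained-intron class. Ikbkb had 97.8, 106 and 154 TPM in its 7 retained-intron isoforms, against 7.43, 14.4 and 28.3 TPM in its 4 protein-coding isoforms, and the classes did not overlap. Its log2 ratio was 3.00 (SE 0.31), with an adjusted p of 0.00467 by limma. Chuk had 41.5, 68.5 and 64.3 TPM in 6 retained-intron isoforms, against 9.63, 23.3 and 20.1 TPM in 2 protein-coding isoforms, again without overlap. Its log2 ratio was 1.77 (SE 0.22), with an adjusted p of 0.0065 by limma. Ikbkb stayed past the threshold under every alternative run, whereas Chuk had a ratio of 0.15 and an adjusted p of 0.509 by limma with expected counts in place of TPM.

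Within Ikbkb the reads were spread over many intron-holding models. Ikbkb-211 led with 15.1% of the gene's TPM, from 1401, 1143 and 1989 counts, and 49.7% of its 4845 bases are intron bases of the longest coding isoform. Ikbkb-212 followed in counts, at 922, 994 and 1446, and 94.9% of its bases are intron bases. The isoform with the longest coding sequence, Ikbkb-201 with 757 codons, had 0, 6.38 and 11.1 TPM from 0, 281 and 527 counts in replicates 1, 2 and 3. It was thus listed at 0 in replicate 1 although the gene had 5024 counts there. The kallisto layout gave Ikbkb-201 58, 46 and 507 counts in replicates 1, 2 and 3, so the 0 was not repeated there.

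Ikbke also stood on the retained-intron side, but by less. Its 4 retained-intron isoforms had 999, 933 and 875 TPM, against 584, 478 and 471 TPM in its 3 protein-coding isoforms. The log2 ratio was 0.88 (SE 0.19), with an adjusted p of 0.0225 by limma. The call was lost with no filter on summed TPM (adjusted p 0.0575 by limma) and without replicate 1, 2 or 3 (adjusted p 0.059, 0.0787 and 0.118 by limma), and the ratio was -0.03 with expected counts. In counts the classes were close to even, at 49.5 ± 0.95% retained-intron and 50.5 ± 0.95% protein-coding (SD, n = 3), against 64.7 ± 1.53% and 35.3 ± 1.53% in TPM.

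The single isoforms show how length enters. Ikbke-205, a model of 797 bases that begins inside intron 7, led in mean TPM, with 369, 302 and 266 TPM from 3478, 2121 and 2076 counts. It was the highest isoform in replicate 1 only. Ikbke-201, the full coding isoform of 3251 bases and 717 codons, had 268, 307 and 288 TPM from 12072, 12166 and 12324 counts, the most reads of any isoform of the gene. Ikbke-206, a model of 5856 bases that holds 3 introns whole, had 110, 115 and 97.6 TPM from 9074, 8543 and 7797 counts. Which isoform led in TPM changed without replicate 1, when it was Ikbke-201, and in the kallisto layout, when it was Ikbke-207.

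Tbk1 and Azi2 passed no threshold. Tbk1 had 123, 146 and 130 TPM in 3 retained-intron isoforms, against 112, 115 and 111 TPM in 2 protein-coding isoforms. Its log2 ratio was 0.24 (SE 0.20), with an adjusted p of 0.346 by limma. With expected counts it was -2.54, on the protein-coding side (adjusted p 0.00144 by limma). Tbk1-201, the coding isoform of 729 codons, took 42.5% of the gene's TPM and 4231, 4198 and 4380 counts, while the 3 short retained-intron models together took 13.7 ± 1.59% of its counts (SD, n = 3). Azi2 had 65.8, 49.9 and 53.7 TPM in the retained-intron class, against 48.9, 57.8 and 63.6 TPM in the protein-coding class. These overlapped, and the log2 ratio was -0.01 (SE 0.24, adjusted p 0.978 by limma); with expected counts it was -2.69 (adjusted p 0.00388 by limma).

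Ikbkg was the member higher in the protein-coding class. It had 3.55, 3.37 and 1.74 TPM in its 1 retained-intron isoform, against 8.99, 12.3 and 11.0 TPM in 16 protein-coding isoforms, a log2 ratio of -1.92 (SE 0.32, adjusted p 0.011 by limma). The retained-intron value rests on 26, 17 and 10 counts, and the call was lost without replicate 3 (adjusted p 0.0555 by limma). Its leading isoform, Ikbkg-216, had 21.99% of the gene's TPM from 40, 10 and 23 counts, too few to order the 18 annotated isoforms.

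**Figure D3:**
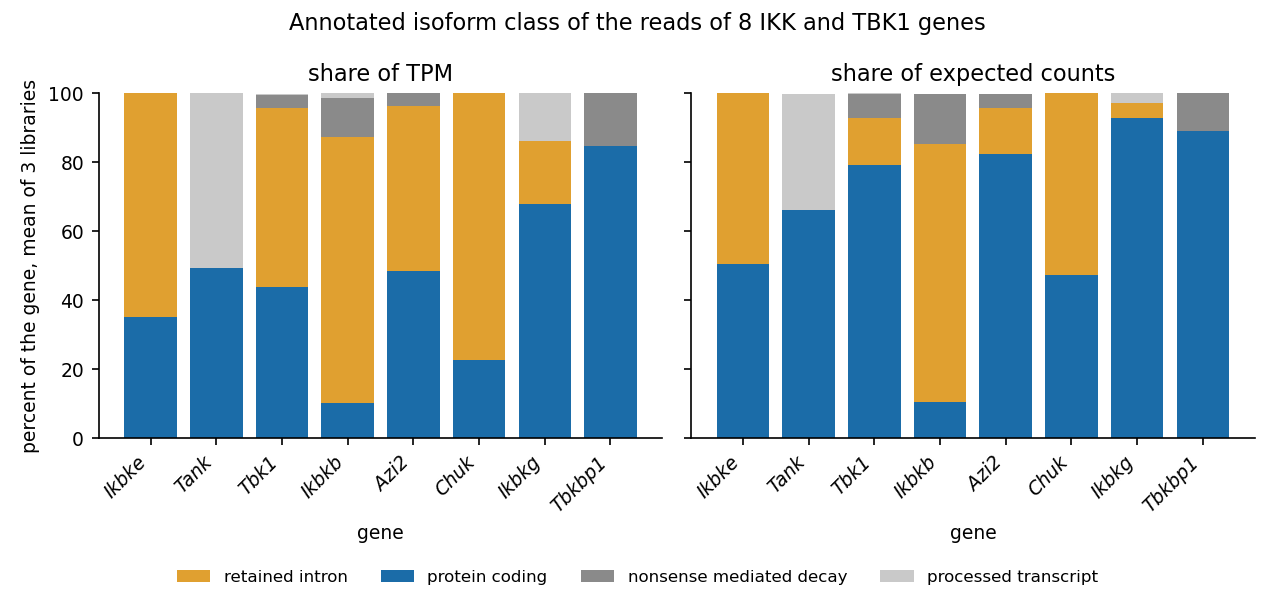
Share of each gene's TPM (left) and of its expected counts (right) in 4 annotated isoform classes, as means of 3 libraries, in percent. Ikbkb is mostly retained-intron on both scales (77.3% of TPM and 74.9% of counts), whereas the retained-intron isoforms of Tbk1 hold 51.8% of its TPM and 13.7% of its counts.

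Of the 38 pathway genes, 26 could be tested, with a median log2 ratio of 0.11. The retained-intron class was higher in 10. Among the substrates and targets these were Nfkb1, which encodes the p105 precursor of NF-κB p50, at 3.07 (SE 0.30), Irf7 at 2.27 (SE 0.19), Irf3 at 1.66 (SE 0.20) and Sqstm1 at 0.89 (SE 0.23). All 3 genes of the linear ubiquitin ligase were among them, with Sharpin at 4.10 (SE 0.95), Rbck1 at 0.93 (SE 0.22) and Rnf31 at 0.87 (SE 0.21), as were Map3k8 at 1.44, Sike1 at 1.67 and Tnfaip3 at 0.70. Sharpin had 0 TPM in the protein-coding class in replicate 1, so its ratio depends on the pseudocount. The protein-coding class was higher in 7, with Nfkb2 at -3.24 (SE 0.24), Nfkbia, which encodes IκBα, at -3.09 (SE 0.23), Traf3 at -2.70, Tab2 at -1.39, Rela at -1.22, Tnip1 at -0.92 and Relb at -0.68. These pathway genes and the kinases thus fell on both sides. Adjusted p-values by limma ran up to 0.0438 among the 17 genes called. The largest were those of Relb (0.0438), Tnfaip3 (0.0407) and Sqstm1 (0.0331). Whether each of these 17 calls holds under the alternative settings was not tested. Over all 4311 genes, 1049 were higher in the retained-intron class and 1104 in the protein-coding class. With expected counts in place of TPM these numbers were 709 and 2372.

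**Figure D4:**
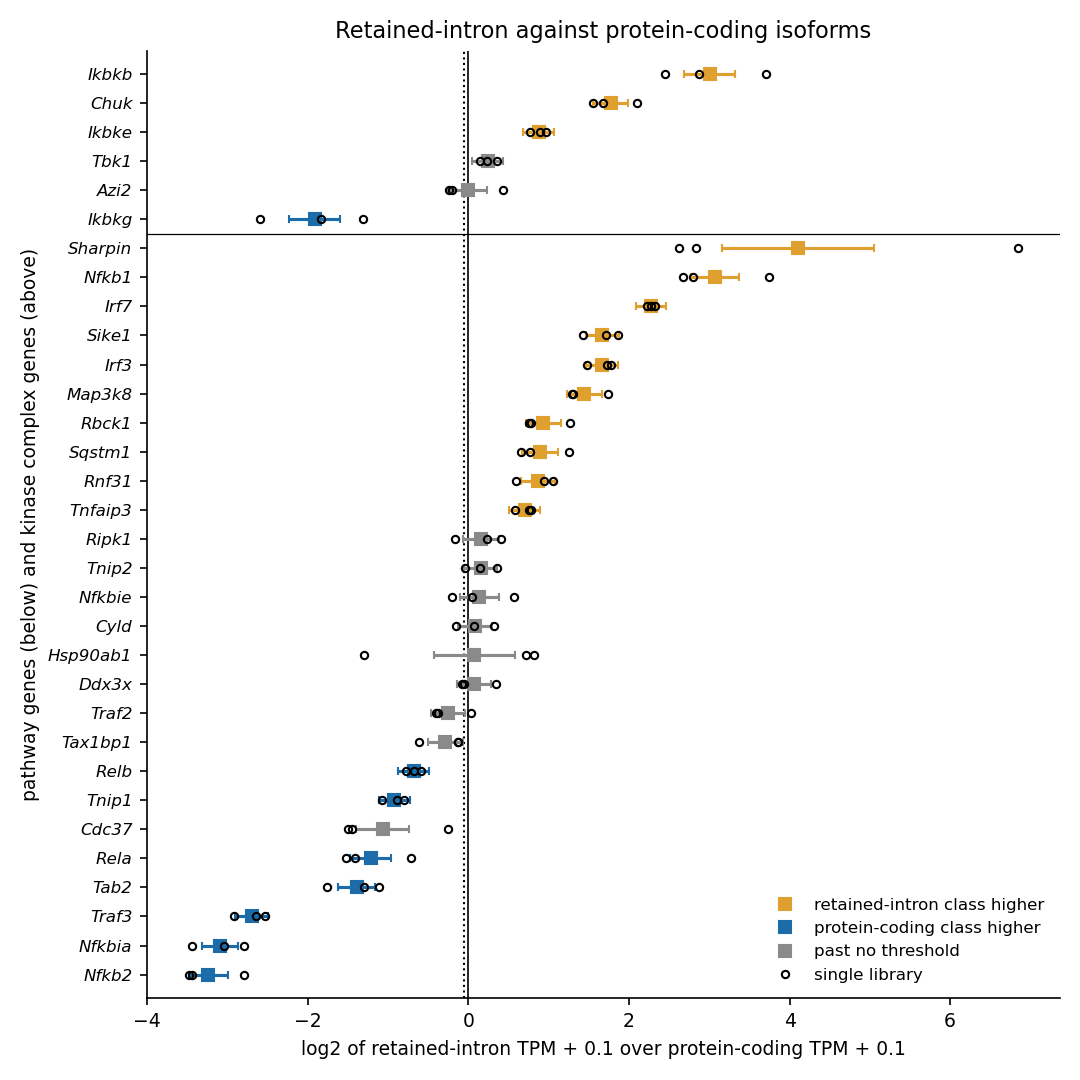
log2 of retained-intron over protein-coding TPM (each plus 0.1) for 6 kinase and scaffold genes above the line and 26 pathway genes below it; squares are means of 3 libraries with the standard error from limma, open circles are single libraries, and the dotted line is the median of -0.06 over 4311 genes. Ikbkb, Chuk and Ikbke lie to the right of 0 in every library, and Ikbkg lies to the left in every library.

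Tank differs in kind, since its isoforms without a coding sequence are classed as processed transcripts. It had 253, 156 and 303 TPM in 5 protein-coding isoforms and 211, 215 and 282 TPM in 6 processed transcripts. In replicate 2 the protein-coding value was thus the lowest of the 3 and below that of the processed transcripts. In expected counts, which are not divided by length, the protein-coding isoforms held 66.3 ± 4.73% and the processed transcripts 33.7 ± 4.73% (SD, n = 3). Tank-211, a processed transcript of 832 bases, led in mean TPM with 76.1, 115 and 156 TPM, or 24.7 ± 7.52% of the gene (SD, n = 3). In replicate 1 it lay below Tank-207 at 93.6, Tank-205 at 89.9 and Tank-202 at 87.4 TPM. Without replicate 2, and in the kallisto layout, the leading isoform was Tank-202, a coding isoform of 360 codons. The longest reading frame, that of Tank-201 with 448 codons, had 58.9, 29.2 and 60.9 TPM. Both Tank-202 and Azi2-207, coding isoforms of 360 and 283 codons, run into an intron of the longer coding isoform, and 58.7% and 52.4% of their bases are intron bases there.

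Tank isoforms also start in different places. A group of 4 isoforms begins at chr2:61578585-61578611 and had 187, 98.1 and 187 TPM. A group of 5 begins 14492 bases further on, at chr2:61593077-61593165, and had 201, 157 and 241 TPM. The downstream group was higher in each library and held 42.3 ± 1.04% of the gene's TPM, against 32.9 ± 6.95% for the upstream group (SD, n = 3). In the kallisto layout they held 49.0 ± 0.98% and 38.9 ± 4.55% (SD, n = 3), so the downstream group was ahead there too. The downstream group includes Tank-207, a processed transcript, at 93.6, 70.2 and 80 TPM in replicates 1, 2 and 3. Of its bases, 90.4% are intron bases of the longest coding isoform. Without Tank-207 the downstream group lay below the upstream group in each library, in either layout. Tank-211 begins 65246 bases from the first start. Annotated 5′ ends of partial models need not be starts of transcription.

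Promoter windows of 300 bases, from 250 before to 50 after a start, were taken from RefSeq on GRCm38.p6, and 14 windows matched 7 of the 8 genes, all but Ikbkb. They are shown for the Tank starts because reads were assigned to both. Capitals mark a match to the κB motif, the site that NF-κB binds.
Tank, upstream start, plus strand, chr2:61578336-61578635: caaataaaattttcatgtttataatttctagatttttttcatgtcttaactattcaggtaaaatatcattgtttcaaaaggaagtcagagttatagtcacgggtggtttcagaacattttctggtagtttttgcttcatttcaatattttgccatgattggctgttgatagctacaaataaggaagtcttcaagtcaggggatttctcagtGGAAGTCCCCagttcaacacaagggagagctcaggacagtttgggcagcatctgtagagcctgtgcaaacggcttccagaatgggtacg
Tank, downstream start, plus strand, chr2:61592847-61593146: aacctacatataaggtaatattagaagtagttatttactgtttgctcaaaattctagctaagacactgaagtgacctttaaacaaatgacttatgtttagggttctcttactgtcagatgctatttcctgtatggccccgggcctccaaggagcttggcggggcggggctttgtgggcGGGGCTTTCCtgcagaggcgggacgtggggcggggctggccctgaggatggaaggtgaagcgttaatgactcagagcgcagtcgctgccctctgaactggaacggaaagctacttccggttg

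The windows differ in base composition, with 38.3% G and C at the upstream start and 51.0% at the downstream start. Each holds 1 match, at -39 to -30 on the opposite strand upstream and at -72 to -63 downstream, counted in bases from the start. The κB motif was searched on both strands and matched 8.46% of 32851 promoter windows of the same length. Of the 14 windows here, 5 held a match, but overlapping Tank windows among them hold the same sites. By gene, of the 7 with a window, Tank and Tbkbp1 held a match. The windows of Ikbke, Tbk1, Azi2, Chuk and Ikbkg held none. The core of the interferon-stimulated response element, GAAANNGAAA, matched 3.44% of all windows on either strand and 0 of the 14 windows here. Such matches describe letters in these windows and are not measured binding sites. For Ikbke only 1 window was searched, near its first annotated start, so the letters at its other annotated 5′ ends were not looked at.

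**Figure D5:**
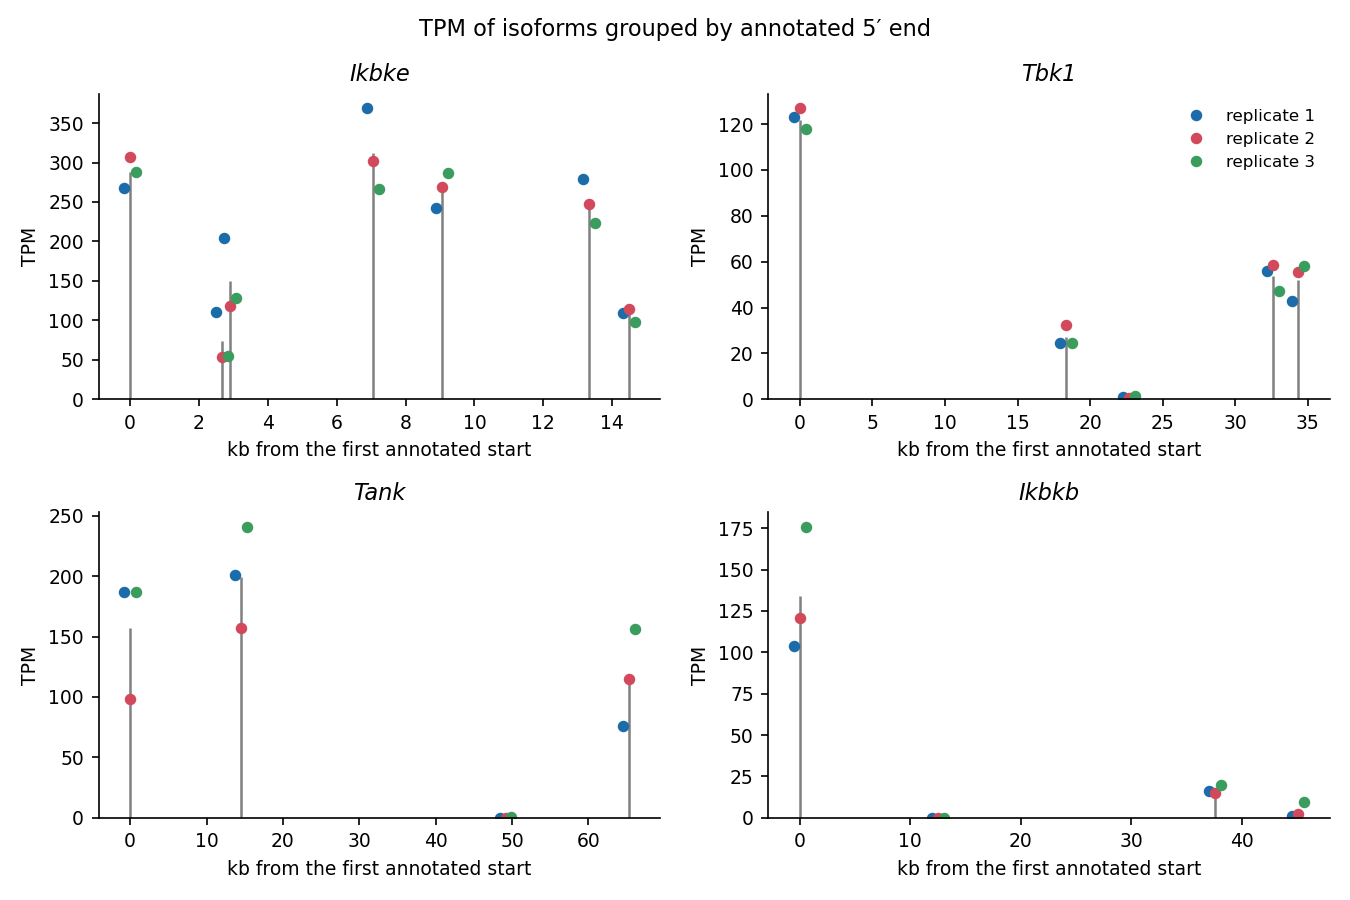
TPM of isoforms grouped by annotated 5′ end, against distance in kb from the first annotated start of the gene, for Ikbke, Tbk1, Tank and Ikbkb; grey lines reach the mean of 3 libraries and points, set slightly apart along the axis, are single libraries. Tank splits mainly between its first start and one 14492 bases on, while most Ikbkb TPM falls at the first start (86.2%).

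Neighbouring genes limit some of these values, because the strand setting of the counting is not given in the sources used here. The antisense gene Gm28913 lies within Ikbke, from 12857 to 16276 bases after its start, with 193, 222 and 192 TPM from 605, 335 and 348 counts. Its span covers the 5′ ends of Ikbke-203 and Ikbke-206, which lie 13318 and 14475 bases from the start. Gm28914, also antisense within Ikbke, had 58.4, 64.6 and 50.1 TPM from 440, 342 and 298 counts. Together they hold few reads beside the 28925 to 35375 of Ikbke. Ikbkg shares 19712 bases with G6pdx on the opposite strand, which had 119, 188 and 99 counts beside the 321, 613 and 501 of Ikbkg. Azi2 overlaps Cmc1 over 5273 bases, with 91, 91 and 90 counts for Cmc1, and Ikbkb overlaps Gm15346 over 9382 bases, with 47, 3 and 10 counts. Reads shared by such pairs cannot be told apart.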

How the data were processed

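Total RNA libraries, depleted of ribosomal RNA, were made from the chromatin fraction in a size range of 250 to 400 bases, per the labels. Expected counts and TPM per gene and transcript, with posterior mean TPM and credibility bounds, were deposited by the authors in the layout RSEM writes, on mm10 and GENCODE M21 per the file headers. Estimated counts and TPM in the kallisto layout were also deposited. Aligner, strand setting and tool versions were not given in the sources used here. Rows naming no gene (1.94, 0.269 and 0.386% of counts in replicates 1, 2 and 3) were left out.

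Levels are deposited TPM. Contrasts used log2(TPM + 1), which understates differences of low genes, and exact sign flips. Isoform ratios used limma 3.58.1 in R 4.3.3 with a threshold of 0.05. Coefficients of variation used edgeR 4.0.16 TMM factors on expected counts rounded to whole numbers (1.02, 1.11 and 0.88), with DESeq2 1.42.0 size factors as an alternative. Methods were tested on simulated data. Tables were handled with Python 3.11.15, pandas 2.3.3, numpy 2.4.6 and scipy 1.17.1. A gene was called undetected at 3 counts or fewer in each library, a limit that covers counting error only; 3 counts are 0.238, 0.174 and 0.176 CPM. The libraries are not copies, since chi-square per gene over pairs was 68.6 to 115.

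The members, lists and tests were chosen with earlier results of these data known. Named were all members, the 2 highest and 2 lowest genes of each pathway group, pathway genes past the isoform threshold and the 3 genes nearest to Ikbke and Tbk1. Alternatives were other quantifications, pseudocounts and filters, and leaving out each library. Some items are not reported here.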

Additional observations from a re-analysis of the deposited data

How the results depend on the processing

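The order of kinases and scaffolds rests on length-scaled levels. Of 63 alternative values of the 7 contrasts, 61 kept their direction. Tbk1 minus Ikbkb turned to -0.10 in CPM and Ikbkb minus Chuk to -0.17 over protein-coding isoforms only, where Ikbkb minus Ikbkg kept its direction but shrank to 0.42. Mean levels in the kallisto layout were 2127 TPM for Ikbke, 359 for Tbk1, 163 for Azi2, 103 for Chuk and 22.9 for Ikbkg. As posterior means they were 240 TPM for Tbk1 and 110 TPM for Azi2. Over protein-coding isoforms only they were 511 TPM for Ikbke, 112 for Tbk1, 237 for Tank, 56.8 for Azi2, 16.7 for Ikbkb, 17.7 for Chuk and 10.8 for Ikbkg. Genes higher in the retained-intron and in the protein-coding class numbered 1049 and 1104 as reported, 1810 and 1351 of 4871 tested in the kallisto layout, and 709 and 2372 with expected counts. With a filter of 20 TPM, which tests fewer genes, they numbered 681 and 552, and without 1 library 351 to 901 and 473 to 849. With expected counts the log2 ratio was -0.03 for Ikbke and -2.54 for Tbk1. For Azi2 it was 0.052 in the kallisto layout and ran from -0.23 to 0.11 without 1 library. The cause was not tested. Leading isoforms changed for 7 of 8 genes under some setting. No paired analysis was possible because all libraries belong to 1 group. The sign-flip test chosen for the contrasts cannot go below 0.25 with 3 libraries.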
